A study of Homo sapiens with 9 samples.

Results

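Non-fibrillar collagens are the collagens that do not build the striated fibrils of skin, bone and cartilage. They were taken as all gene symbols made of COL, a number, A and a number, without the 10 fibrillar genes COL1A1, COL1A2, COL2A1, COL3A1, COL5A1, COL5A2, COL5A3, COL11A1, COL11A2 and COL27A1, which left 33 of the 18970 genes in the count tables. Of these, 20 reached 1 CPM of T>C reads (CPM, counts scaled to a common library size) in at least 3 samples and are described singly. The rule keeps COL24A1, which is fibrillar by structure. The cells were cranial neural crest cells (CNCCs), the migratory cells that form most of the facial skeleton, derived from the established human embryonic stem line H9. Both copies of SOX9 carried a carboxy-terminal tag of an FKBP12 degron, mNeonGreen and V5, through which the small molecule dTAGV-1 sends SOX9 protein for degradation. SLAM-seq, which reads newly made RNA by T>C conversions, compared cells at 0h with cells held in 500 nM dTAGV-1 for 3 h or 24 h. The labels give a relative SOX9 level of 100% at 0h and 0% later. Cells took up 100 uM 4-thiouridine over the last 2 h, so labelling began 1 h into treatment for 3h samples and 22 h into it for 24h samples.

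Each group held 3 samples, from the same 3 cultures: S9CC13_R6, S9CC47_R5 and S9CC47_R6, after 2 tagged clones (S9CC13, S9CC47) and 2 batches of differentiation (R5, R6), of which R5 holds 1 culture. Values for 3 samples are listed below in that order. All 9 samples carried the tag, and none was an untagged cell. The 0h labels name dTAGV-1 with a time of 0 h, and the protocol gives DMSO or dTAGV-1 by condition. Nothing states whether the dishes of one culture were grown apart, so p-values measure the spread between these samples only. The 3h and 24h groups were both compared with the same 0h samples.

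Collagens are trimers whose chains share a triple-helical repeat. Type IV collagen forms the network of basement membranes, type VI forms beaded microfilaments around cells, and the FACIT collagens sit on the surface of fibrils, as type IX does on cartilage fibrils of type II collagen. Types XIII, XVII, XXIII and XXV cross the plasma membrane, and the multiplexins XV and XVIII carry glycan chains and lie in basement membrane zones. SOX9 is the transcription factor that directs cartilage formation and is known to act on cartilage collagen genes.

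Library depth was 16955633 to 28782678 total reads and 3130673 to 5475800 T>C reads. The members together took 0.0394% to 0.062% of T>C reads and 0.0773% to 0.0971% of total reads, or 1344 to 2708 T>C reads a library. Neural crest markers were detected for 10 of 10 genes, and their summed T>C level went from 7230 to 7746 CPM at 0h to 10009 to 11325 CPM at 24h. Of 5 pluripotent cell markers, 2 were above 1 CPM on average in every group and POU5F1 and TDGF1 were at 0, with sums of 399 to 440.2 CPM at 0h, 273 to 335 at 3h and 299 to 351 at 24h. Over 4 chondrocyte markers the sum was 1.11 to 3.22 CPM at 0h and 0.37 to 1.62 CPM at 24h, with CNMD at 0 throughout. The 4 endothelial markers summed to at most 1.62 CPM in any sample, and CDH5 was at 0 in every group. For 5 glia and melanocyte markers the sum was 8.5 to 10.6 CPM at 0h and 3.8 to 5.54 at 24h. Sums were 17.9 to 34.0 and 11.7 to 22.1 for 4 smooth muscle markers, and 1.17 to 3.79 and 0.23 to 2.03 for 4 epithelial markers. The 6 neural markers gave 5.28 to 11.1 and 5.48 to 8.87. Normalized T>C reads of SOX9 were 9493 to 9961 at 0h, 15050 to 18400 at 3h and 19880 to 23540 at 24h, and they do not check the depletion, which acts on the protein. In bulk RNA, fewer cells of a type and less RNA per cell cannot be told apart. What part these moves had in the collagen values was not tested.

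The promoter stretches below are shown because they belong to members that changed or to a pair that shares a start region. They come from a set of RefSeq promoter sequences on GRCh38.p14 and end at the base before the annotated start. The set used here holds an entry for 27 of the 33 members. Capitals mark the GC box, searched as GGGCGG and its reverse complement CCGCCC. COL4A1 and COL4A2, the main chains of basement membrane collagen, are read away from each other from starts 126 bases apart, and the interval (chr13:110307158-110307283) is given on the COL4A2 strand. COL18A1, the gene of the endostatin precursor, has a pair of annotated starts on the plus strand, and the 250 bases before each are at chr21:45404915-45405164 and chr21:45455272-45455521. COL6A2, a type VI chain, lies further along the same strand, with its 250 bases at chr21:46097862-46098111. COL13A1, a transmembrane collagen, has its 250 bases at chr10:69801656-69801905 on the plus strand.
COL4A1/COL4A2: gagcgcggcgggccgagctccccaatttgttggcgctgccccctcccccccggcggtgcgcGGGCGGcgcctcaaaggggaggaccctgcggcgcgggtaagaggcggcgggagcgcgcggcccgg
COL18A1, upstream start: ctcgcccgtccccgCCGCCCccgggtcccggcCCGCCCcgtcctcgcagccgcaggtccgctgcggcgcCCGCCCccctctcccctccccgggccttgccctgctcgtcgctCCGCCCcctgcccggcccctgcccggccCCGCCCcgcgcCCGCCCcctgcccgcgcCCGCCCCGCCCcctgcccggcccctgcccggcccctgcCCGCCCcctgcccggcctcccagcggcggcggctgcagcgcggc
COL18A1, downstream start: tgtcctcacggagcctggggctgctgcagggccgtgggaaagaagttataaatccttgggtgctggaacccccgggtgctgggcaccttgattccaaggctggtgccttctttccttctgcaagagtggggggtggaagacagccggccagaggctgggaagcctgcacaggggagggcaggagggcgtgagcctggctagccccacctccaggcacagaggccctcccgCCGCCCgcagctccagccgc
COL6A2: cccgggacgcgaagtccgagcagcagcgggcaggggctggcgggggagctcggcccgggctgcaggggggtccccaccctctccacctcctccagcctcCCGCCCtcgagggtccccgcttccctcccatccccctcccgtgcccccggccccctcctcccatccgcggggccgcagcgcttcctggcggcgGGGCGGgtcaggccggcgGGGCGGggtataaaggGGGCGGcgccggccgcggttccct
COL13A1: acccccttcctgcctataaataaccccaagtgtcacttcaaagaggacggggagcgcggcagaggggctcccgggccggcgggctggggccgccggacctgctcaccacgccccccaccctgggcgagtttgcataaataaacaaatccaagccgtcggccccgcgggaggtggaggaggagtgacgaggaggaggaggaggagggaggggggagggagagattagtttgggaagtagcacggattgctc
The first stretch of COL18A1 holds 9 GC boxes, the other 1, COL6A2 4, the COL4A1/COL4A2 interval 1 and COL13A1 0. Over windows of the 250 bases before the start, a GC box was found in 4 of 9 windows of the members called at 24h. COL6A1 is called but has no entry in the set used here. A GC box was found in 42.6% of all 35116 windows. The SOX letters ACAATGG or CCATTGT were in 0 of those 9 windows and in 2.62% of all windows, and the shorter ACAAT or ATTGT, which overlap them, were in 0 of 9 and in 24.6%. These are matches of letters within the windows and not measured sites.

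Before depletion, the members spanned a wide range of levels. COL26A1, a secreted collagen with an EMI domain, was highest at 151 ± 25.3 T>C CPM, followed by COL13A1 at 79.0 ± 3.29 and COL6A1 at 37.9 ± 7.08 (SD, n = 3). In order of mean T>C CPM, they were followed by COL4A2, COL4A5, COL23A1, COL9A1, COL25A1, COL6A2, COL18A1, COL24A1, COL4A1, COL4A6, COL7A1, COL9A2, COL12A1, COL16A1, COL8A1, COL15A1 and COL14A1, the last at 0.681 ± 0.362. The libraries read the 3′ end, so a level is not divided by transcript length, but a T>C level also depends on how many T bases are read. The samples of neighbours did not overlap in 5 of 19 pairs: COL26A1 over COL13A1, COL13A1 over COL6A1, COL9A1 over COL25A1, COL6A2 over COL18A1 and COL18A1 over COL24A1. The other 14 pairs overlapped. The 13 members below the reporting level were COL4A3, COL4A4, COL6A3, COL6A6, COL8A2, COL9A3, COL10A1, COL17A1, COL19A1, COL20A1, COL21A1, COL22A1 and COL28A1. None of them had more than 8 T>C reads in a sample, and 5 had none in any sample.

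At 3h, newly made RNA was higher for 3 members. COL6A1, COL13A1 and COL26A1 were called (DESeq2, Benjamini-Hochberg adjusted p-value under 0.1 over all genes), out of 20 tested, where 1.79% of all genes were called and 1.01% were called higher. The median log2 fold change was 0.19 over the 20 members and -0.01 over all genes. In all, 11 members lay above 0 and 9 below.

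COL6A1 encodes a chain of the type VI microfilament and lies on chromosome 21 from 45981770 to 46005050 (hg38, plus strand), with a last exon from 46003391 to 46005048. Normalized T>C reads (counts divided by size factors) were 157, 185 and 126 at 0h, 311, 313 and 233 at 3h, and 272, 349 and 209.7 at 24h. Every sample at 3h and at 24h was above every 0h sample. COL6A1 rose by 0.80 on the log2 scale after 3h (SE 0.165, DESeq2 adjusted p = 0.000187), in 3 of 3 cultures. After 24h the rise was 0.94 (SE 0.170, adjusted p = 3.96e-06), again in 3 of 3. Both calls were lost without S9CC13_R6 (0.82 and 0.84, adjusted p = 0.434 and 0.931) and without S9CC47_R6 (0.87 and 0.85, adjusted p = 0.371 and 0.308), and both held without S9CC47_R5.

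COL13A1, a transmembrane collagen known from the neuromuscular junction, lies on chromosome 10 from 69801880 to 69964275. Its normalized T>C reads were 315, 341 and 321 at 0h, 361, 461 and 491 at 3h, and 529, 685 and 607.5 at 24h. The 3 groups did not overlap, with 3h above 0h and 24h above 3h. Its rise was 0.46 on the log2 scale after 3h (SE 0.129, DESeq2 adjusted p = 0.0297). By 24h it had reached 0.81 (SE 0.133, adjusted p = 1.95e-07). With the culture as a replicate block, the 3h value of COL13A1 was 0.42 and was no longer called (adjusted p = 0.183). The 3h call was also lost without the surrogate variable (0.43, adjusted p = 0.279) and when total reads set the size factors (0.41, adjusted p = 0.102), while the 24h call was kept under every alternative run. Leaving out any one culture also ended the 3h call of COL13A1, with values of 0.52 without S9CC13_R6, 0.43 without S9CC47_R5 and 0.32 without S9CC47_R6.

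COL26A1 lies on chromosome 7 from 101362875 to 101559024. Its normalized T>C reads were 696, 503 and 667 at 0h, 1199, 961 and 689.7 at 3h, and 714, 782 and 536 at 24h. The S9CC47_R6 culture hardly moved between 0h and 3h, and its 3h sample was below the highest 0h sample. The fit gave a rise of 0.46 on the log2 scale at 3h (SE 0.112, DESeq2 adjusted p = 0.0043), in 3 of 3 cultures. At 24h it was 0.33 (SE 0.117, adjusted p = 0.0967), with overlapping groups and a rise in 2 of 3 cultures. The replicate block took the 24h value to 0.10 (adjusted p = 0.842), and leaving out any one culture also ended that call, with 0.52 without S9CC13_R6, 0.20 without S9CC47_R5 and 0.32 without S9CC47_R6. The 24h call was also lost without the surrogate variable, with no filter beyond 1 count and with size factors from total reads. It was kept in 3 of 10 alternatives. At 3h the call was lost without S9CC13_R6 (0.52, adjusted p = 0.389) and without S9CC47_R5 (0.37, adjusted p = 0.582), without the surrogate variable (0.61, adjusted p = 0.121) and when total reads set the size factors (0.34, adjusted p = 0.178).

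**Figure D1:**
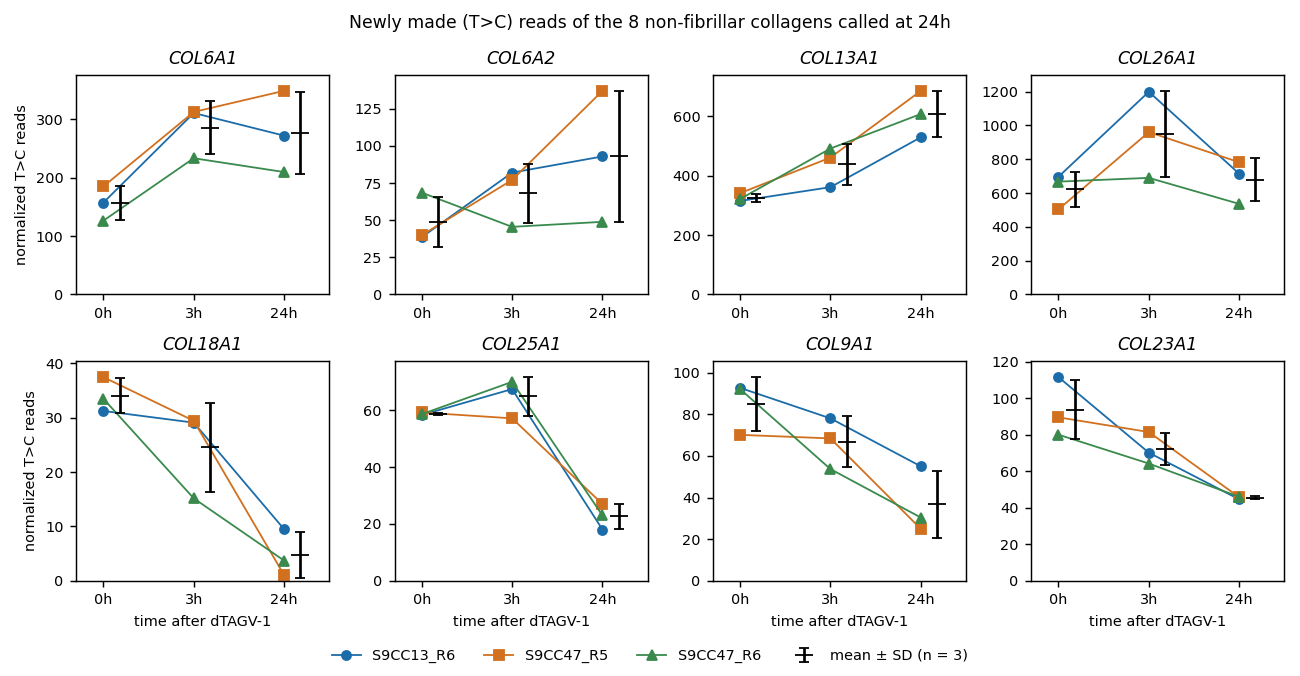
Normalized T>C reads (vertical axis, from 0) of the 8 members called at 24h, by time after dTAGV-1 (horizontal axis). Coloured points and lines are the 3 cultures and black bars are the mean ± SD (n = 3). COL13A1 rose in all 3 cultures at each step, while COL18A1, COL25A1, COL9A1 and COL23A1 were lower in every 24h sample than in any 0h sample.

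At 24h, 8 of the 20 members were called in T>C reads, where 4.98% of all genes were called. Of these, 4 were higher (COL6A1, COL6A2, COL13A1 and COL26A1; 2.38% of all genes were called higher) and 4 were lower (COL18A1, COL25A1, COL9A1 and COL23A1; 2.59% of all genes were called lower). The members called higher were both tested type VI chains, 1 of 3 tested transmembrane collagens and COL26A1. Those called lower were the other 2 tested transmembrane collagens, 1 of 5 tested FACIT chains and 1 of 2 multiplexins. No type IV chain was among them. The median log2 fold change was 0.20 over the 20 members and 0.00 over all genes. The count was 1 without S9CC13_R6, 2 without S9CC47_R5 and 1 without S9CC47_R6, in fits that called 64, 259 and 93 genes in all in place of 599.

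COL6A2 spans 46098112 to 46132848 of chromosome 21, and its start is 93.1 kb past the end of COL6A1 on the same strand. Normalized T>C reads were 38.55, 39.9 and 68.55 at 0h, 82.0, 77.1 and 45.5 at 3h, and 92.9, 137 and 48.9 at 24h. They rose in S9CC13_R6 and S9CC47_R5 and were lower than at 0h in S9CC47_R6 at both times. The fitted log2 fold change at 24h was 1.07 (SE 0.338, DESeq2 adjusted p = 0.0448), falling to 0.79 with the replicate block (adjusted p = 0.248) and 0.84 without the surrogate variable (adjusted p = 0.224). The call was also lost without S9CC13_R6 (1.41), without S9CC47_R5 (0.71) and without S9CC47_R6 (1.51). In total reads the rise of COL6A2 was present in 3 of 3 cultures, at 713, 845 and 872 normalized reads at 0h and 1114, 1827 and 1014 at 24h. That difference was 0.75 (SE 0.129, adjusted p = 4.09e-07).

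COL6A3, the partner of these chains in the common type VI trimer, was too low for the T>C test. It had 11, 13 and 6 total reads at 0h and 37, 30 and 21 at 24h. Its log2 fold change in total reads was 1.62 (SE 0.577, DESeq2 adjusted p = 0.0477), so all 3 tested type VI chains were higher in total reads at 24h. For COL6A3 this rests on few reads, and it was not called without S9CC13_R6.

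COL18A1 showed the largest fall among the 8 called members. It spans 45405165 to 45513720 of chromosome 21 (plus strand), and its end is 468.0 kb before the start of COL6A1. Its T>C reads before normalization numbered 30, 31 and 44 at 0h, 22, 34 and 13 at 3h, and 10, 1 and 5 at 24h. Every 24h sample was below every 0h and 3h sample. COL18A1 T>C reads fell by 2.66 on the log2 scale by 24h (SE 0.634, DESeq2 adjusted p = 0.00169). It was -1.89 without S9CC47_R5, -3.29 without S9CC47_R6 and -3.86 without S9CC13_R6, none of them called. At 3h it was -0.61 (SE 0.525, adjusted p = 0.960).

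Total reads of COL18A1 gave the same direction at higher depth. They were 794, 487 and 955 before normalization at 0h, 767, 844 and 503 at 3h, and 263, 229 and 308 at 24h. By 24h they had fallen by 1.39 on the log2 scale (SE 0.129, DESeq2 adjusted p = 1.46e-24). The 3h value was -0.08 (SE 0.117, adjusted p = 0.978). The last exon of COL18A1, from 45512188 to 45513720, overlaps SLC19A1 on the other strand. The strand setting of the counting is not given in the sources used here, although the kit keeps strand. SLC19A1 had a total-read log2 fold change of -0.36 at 24h (SE 0.126, DESeq2 adjusted p = 0.048). Whether reads of SLC19A1 entered the COL18A1 counts was not tested.

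COL25A1, a transmembrane collagen of neurons and developing muscle, lies on chromosome 4 from 108808725 to 109302752. Its normalized T>C reads were 58.35, 59.25 and 58.65 at 0h, 67.5, 57.2 and 70.02 at 3h, and 18.0, 27.0 and 23.0 at 24h. The 24h samples were all below the rest, and the 3h samples overlapped those at 0h. COL25A1 gave 0.15 at 3h (SE 0.316, DESeq2 adjusted p = 0.998) but fell by 1.39 on the log2 scale by 24h (SE 0.356, adjusted p = 0.00499). It was the one member called between 24h and 3h in T>C reads, at -1.54 (SE 0.382, adjusted p = 0.0116), where 1.14% of all genes were called. The replicate block called 3 members in that contrast, adding COL13A1 at 0.47 (adjusted p = 0.028) and COL18A1 at -2.41 (adjusted p = 0.0106). No member was called in it with any culture left out, with COL25A1 between -1.82 and -1.37 over all alternatives. The numbers of all genes called in these other fits are not given here. The member counts therefore show no change particular to the members.

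COL9A1, a FACIT chain that coats cartilage fibrils, lies on chromosome 6 from 70216040 to 70303084 on the minus strand. Its normalized T>C reads were 92.7, 70.1 and 92.2 at 0h, 78.1, 68.4 and 53.7 at 3h, and 55.0, 24.9 and 30.4 at 24h. The 24h samples lay below all those at 0h, while 3h overlapped 0h. COL9A1 fell by 1.07 in the 24h samples (SE 0.327, DESeq2 adjusted p = 0.0316), in 3 of 3 cultures, and the 3h value was -0.42 (SE 0.302, adjusted p = 0.910). COL9A2, which pairs with it in type IX collagen, went from 13, 5 and 13 T>C reads to 6, 0 and 4 in the 24h samples, with -1.35 (SE 1.00, DESeq2 adjusted p = 0.638).

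COL23A1, a transmembrane collagen, lies on chromosome 5 from 178237476 to 178590393. Its normalized T>C reads were 111.5, 89.5 and 80.0 at 0h, 70.1, 81.4 and 64.2 at 3h, and 44.6, 45.7 and 45.9 at 24h. The 24h samples were close to each other and below all 6 others. COL23A1 fell by 0.99 by 24h (SE 0.292, DESeq2 adjusted p = 0.0239), and the 3h value was -0.40 (SE 0.273, adjusted p = 0.897). Leaving out any one culture ended the 24h calls of COL25A1, COL9A1 and COL23A1. Their values were -1.27, -1.35 and -0.87 without S9CC13_R6, -1.58, -0.83 and -0.997 without S9CC47_R5, and -1.43, -1.11 and -1.15 without S9CC47_R6.

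**Figure D2:**
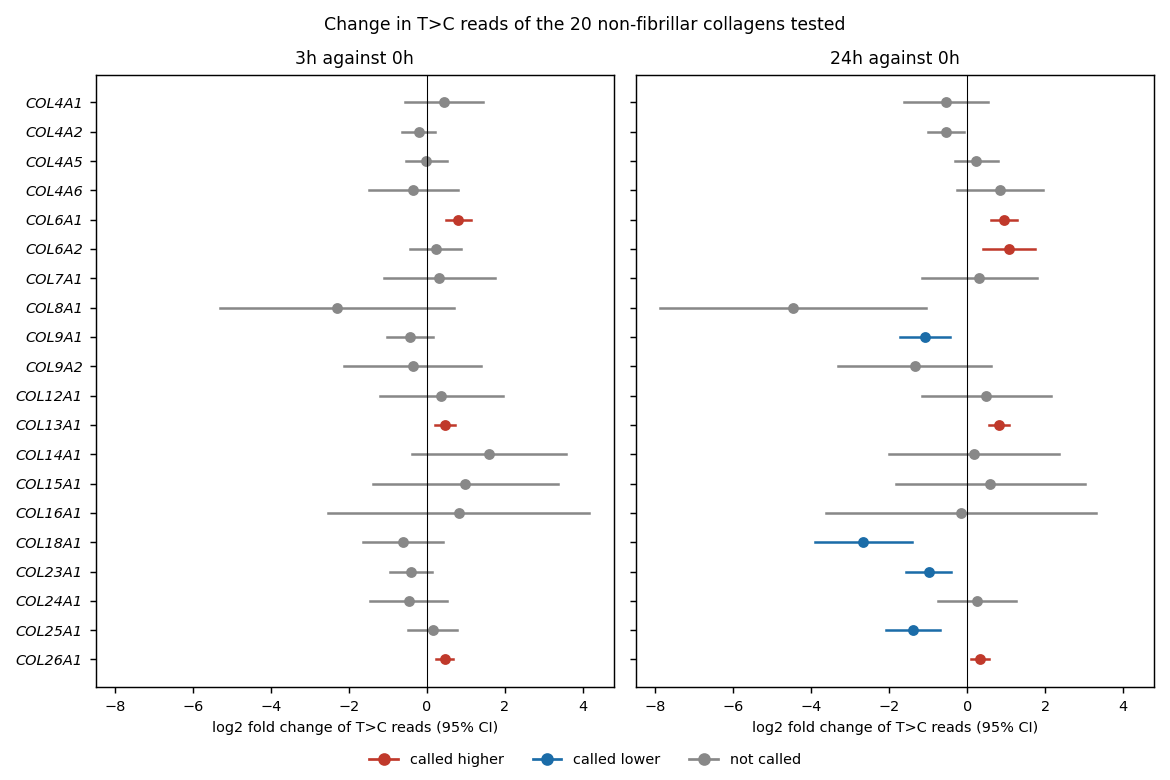
Log2 fold change of T>C reads (horizontal axis) with its 95% confidence interval for the 20 members tested, at 3h and at 24h against 0h. Red marks members called higher, blue called lower and grey not called. At 24h the called members span -2.66 (COL18A1) to 1.07 (COL6A2), and the widest intervals belong to members with few reads such as COL8A1 and COL16A1.

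The 12 members not called at either time were, for the most part, thinly read. Of the 20 tested members, 8 had a mean under 20 normalized T>C reads, which leaves wide intervals. COL4A2 was read more deeply, where normalized T>C reads went from 133 ± 16.4 before treatment to 82.6 ± 13.6 at 24h (mean ± SD, n = 3), and every 24h sample was below every 0h sample. Its value was -0.55 (SE 0.231, DESeq2 adjusted p = 0.216), so it was not called. It was called with the replicate block (-0.69, adjusted p = 0.0569) and also without the surrogate variable (-0.69). In total reads COL4A2 went from 1535, 1398 and 1656 normalized reads to 1149, 986 and 1028, and fell by 0.48 on the log2 scale (SE 0.0927, adjusted p = 1.14e-05).

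COL4A1, which shares its start region with COL4A2, had -0.54 in T>C reads at 24h (95% interval -1.62 to 0.54) and -0.33 in total reads (-0.68 to 0.02), neither called. The pair on the X chromosome that shares starts 379 bases apart gave 0.23 for COL4A5 (interval -0.32 to 0.78) and 0.84 for COL4A6 (interval -0.27 to 1.955). COL4A6 had 88.8, 83.5 and 83.7 normalized total reads at 0h and 126.5, 121 and 128 at 24h, without overlap, with 0.55 and an adjusted p of 0.125 in DESeq2 and 0.0823 in edgeR.

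COL8A1, of the hexagonal networks, was covered by 2, 6 and 8 T>C reads in the 0h samples, 0, 0 and 4 at 3h, and 0, 0 and 5 at 24h. Its total reads were 7, 9 and 51 at 0h and 3, 0 and 70 at 24h, so S9CC47_R6 went against the other cultures. DESeq2 did not call it at 24h (T>C adjusted p = 0.156), and edgeR did (adjusted p = 0.0433). The anchoring-fibril gene COL7A1 gave 0.31 at 24h, the FACIT genes COL12A1, COL14A1 and COL16A1 gave 0.49, 0.17 and -0.17, the multiplexin COL15A1 gave 0.60 and COL24A1 gave 0.24. These had standard errors of 0.511 to 1.77, and the sign of each changed under at least 1 alternative.

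At 3h, total reads called 0 of 22 members, where 1.89% of all genes were called. With DESeq2, 1 member had an unadjusted p-value under 0.05 (COL13A1, 0.29, SE 0.105), and edgeR called 0. The share of all genes at that unadjusted threshold is not given here. At 24h, total reads called 10 of 22 members, where 15.0% of all genes were called. Those higher were COL6A1, COL6A2, COL6A3 and COL13A1 (4 of 22, with 7.11% of all genes higher), and those lower were COL18A1, COL25A1, COL9A1, COL23A1, COL4A2 and COL8A2 (6 of 22, with 7.85% lower). The log2 fold changes in total reads were 0.47 for COL6A1, 0.82 for COL13A1, -1.09 for COL25A1, -0.71 for COL9A1 and -0.29 for COL23A1. COL8A2, a second hexagonal network chain, went from 34, 45 and 60 total reads to 8, 16 and 29, a log2 fold change of -1.71 (SE 0.472, adjusted p = 0.00546). Without S9CC13_R6, 4 members were called (COL13A1, COL18A1, COL6A2 and COL26A1). The number of all genes called in that fit is not given here, so this count shows no change particular to the members. Between 24h and 3h, 7 members were called in total reads, where 5.39% of all genes were called.

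Total reads hold the T>C reads, so the reads with no conversion were fitted by themselves. None of 22 members was called in unconverted reads at 3h (DESeq2, 0 with an unadjusted p-value under 0.05; 1.10% of all genes called), and 10 were called at 24h (12.1% of all genes). To test whether the labelled and unlabelled reads of a gene moved apart, both were put in one DESeq2 fit with a term for each library, a test chosen after seeing the data. At 3h it called 2 of 19 members, where 0.334% of 11361 genes were called. The T>C reads of COL6A1 rose against its unconverted reads by 0.93 (SE 0.140, adjusted p = 8.85e-08), and those of COL26A1 by 0.51 (SE 0.123, adjusted p = 0.0171). COL6A1 was called with each culture left out, and COL26A1 lost its call without S9CC47_R5, when 1 member was called. COL13A1 gave 0.27 (95% interval -0.05 to 0.585).

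At 24h the same test called 0 of 19 members and 0.0176% of all genes (edgeR called 0 members). Unadjusted p-values under 0.05 were found for 4 members with DESeq2: COL6A1 at 0.41, COL23A1 at -0.76, COL9A1 at -0.56 and COL18A1 at -1.56. The share of all genes at that unadjusted threshold is not given here, so the 4 are not set against a background. For COL13A1 the difference was -0.10, with an interval of -0.41 to 0.21.

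**Figure D3:**
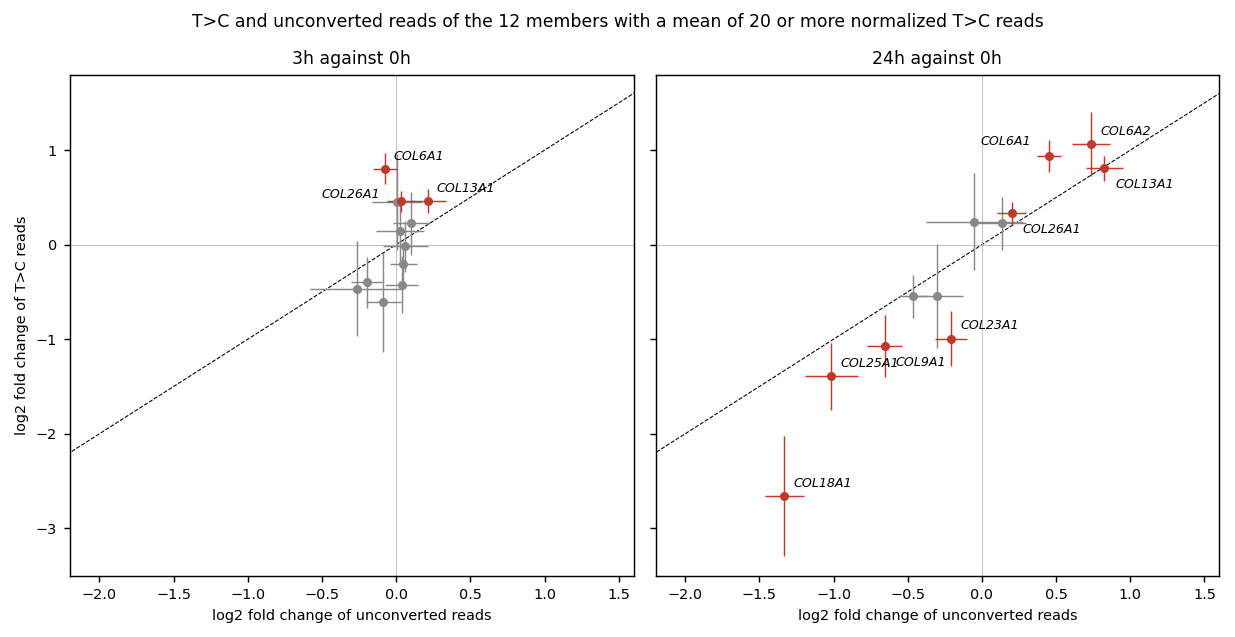
Log2 fold change of T>C reads (vertical) against that of unconverted reads (horizontal) for the 12 members averaging 20 or more normalized T>C reads, at 3h and 24h against 0h. Bars are standard errors, the dashed line marks equal change, and members called in T>C reads are red. At 3h the points spread vertically, with unconverted changes near 0 and COL6A1 at 0.80. At 24h they spread along both axes.

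The share of a gene's reads that carried a conversion differed widely between members. Over the 11 members with at least 100 total reads in each 0h sample, the mean share at 0h ran from 4.14% ± 0.478 for COL6A1 and 4.92% ± 1.32 for COL18A1 to 34.7% ± 2.68 for COL13A1 (SD, n = 3). Whole libraries had 15.9% to 21.3% over all 9 samples. The other means were 6.08% for COL6A2, 8.48% for COL4A1, 8.81% for COL4A2, 9.45% for COL26A1, 11.2% for COL9A1, 11.3% for COL23A1, 20.2% for COL25A1 and 21.3% for COL4A5, beside 18.5% to 20.1% for whole libraries at 0h. T bases made up 32.0% of the last 250 bases of the annotated COL6A1 transcript, 18.0% of those of COL18A1, 14.0% of those of COL6A2 and 34.8% of those of COL13A1. Across the 11 genes, Spearman's rho between share and T content was 0.62 and Pearson's r was 0.54, a description over genes that share libraries. The counted interval itself was not used here.

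The share of COL6A1 was 4.18%, 4.60% and 3.65% at 0h, 6.32%, 7.07% and 6.96% at 3h, and 5.30%, 6.78% and 5.39% at 24h. At 3h the Wilson 95% interval of each culture lay above that of its own 0h sample, as in S9CC47_R6 with 6.08% to 7.95% against 3.14% to 4.23%. COL26A1 moved from 9.88%, 9.55% and 8.93% to 11.2%, 12.5% and 11.1% at 3h, with 10.3%, 10.9% and 9.57% at 24h. COL13A1 stayed between 31.7% and 37.8% in all 9 samples. Other shares were lower at 3h than in any 0h sample. COL9A1 went from 10.6% to 11.8% at 0h to 6.80% to 9.03% at 3h. COL4A2 went from 8.04% to 9.47% at 0h to 6.38% to 7.53%, and COL23A1 from 10.3% to 12.2% to 7.1% to 10.0%. Whole libraries also moved, from 18.5%, 20.1% and 18.8% at 0h to 15.9%, 18.1% and 19.5% at 3h. When set against unconverted reads at 3h, COL9A1 (-0.39), COL4A2 (-0.19) and COL23A1 (-0.19) were not called. The share of COL18A1 was 3.78%, 6.37% and 4.61% at 0h, and 3.80%, 0.437% and 1.62% at 24h, so it did not fall in S9CC13_R6. The 0.437% in S9CC47_R5 came from 1 of 229 reads (interval 0.077% to 2.43%). PCR copies were not marked in these libraries as far as the sources state, so the intervals cover counting error only.

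**Figure D4:**
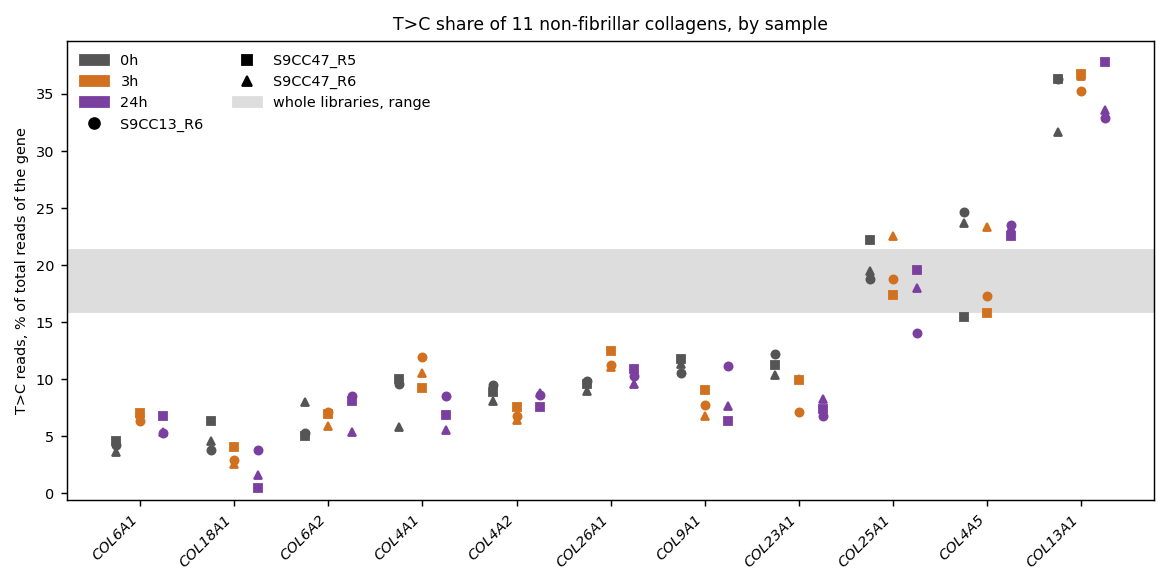
T>C reads as a percent of total reads (vertical axis) for 11 members in each of the 9 samples. Colour gives the time and symbol the culture, and the grey band is the range of whole libraries (15.9% to 21.3%). COL13A1 lies above the band in every sample and COL6A1 and COL18A1 lie far below it.

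Genes that work with these collagens were read from the same fit. Of 16 basement membrane partners, 13 were tested in T>C reads. NID1, which links type IV collagen to laminin, was already lower at 3h (-0.93, SE 0.178, DESeq2 adjusted p = 3.83e-05). Its 24h value was -1.25 (SE 0.188, adjusted p = 8.17e-09). The laminin chain gene LAMA1 was lower at 24h (-0.53, SE 0.170, adjusted p = 0.0473). The other 11 were not called at either time.

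Of 13 collagen receptors, 9 were tested, and DDR2, a collagen-activated kinase, was called higher at 3h (0.37, SE 0.081, DESeq2 adjusted p = 0.000721). Of 12 cartilage and fibril partners of collagens VI and IX, 5 were tested. The small proteoglycan gene LUM was higher at 3h (0.51, adjusted p = 0.000218). At 24h LUM (0.88), DCN (0.85) and BGN (0.58) were called higher and PRELP was called lower (-3.14). Among the 9 tested fibrillar collagens left out by the rule, COL1A1 (1.11) and COL1A2 (0.52) were higher at 24h and COL2A1 (-1.10) and COL11A1 (-0.43) lower. At 3h COL2A1, the cartilage fibril collagen that type IX coats, gave -0.35 (SE 0.125, DESeq2 adjusted p = 0.215).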

How the data were processed

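SLAM-seq libraries (QuantSeq 3′, one read used) were made from 9 samples. The authors trimmed reads and mapped and counted them with slamdunk, and the submitters' processing notes name hg38. They deposited 2 tables of raw counts per gene symbol, total reads and T>C reads, with no normalization, and all 9 columns of each were used. How many conversions make a T>C read is not given in the sources used here.

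Members and gene lists were chosen with earlier results of these data known. Named were all members at 1 CPM of T>C reads in 3 samples, SOX9, list genes called in T>C reads, COL2A1 and COL11A1. COL6A3 and COL8A2 lie below that level and were given only for their calls in total reads. Their values under other settings were not listed. SLC19A1 was added after the annotation was read. All protein-coding genes at that level (12037 for T>C, 11710 for total reads) entered one DESeq2 fit (1.42.0, R 4.3.3) of time, batch and 1 surrogate variable (sva 3.50.0), called at an adjusted p-value under 0.1, with independent filtering off. Unconverted reads are total minus T>C reads. Alternatives were edgeR 4.0.16, TMM factors, no surrogate variable, a culture block, 2 filters, total-read size factors and each culture left out.

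The cultures pair samples across times through the clone and batch in their titles. Deviations from group means of same-culture samples correlated at 0.131 on average in T>C reads (0.0169 to 0.286, 9 pairs) and 0.273 in total reads (-0.0566 to 0.606). Gene coordinates and last exons are from GENCODE release 44, with 18451 of 18970 symbols matched directly, 11 through RefSeq symbols, 390 through RefSeq synonyms and 118 not. The fits were also run on simulated counts made without culture or batch differences. There the fits of T>C and total reads left out the surrogate variable, so the model with it was not tested.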

Additional observations from a re-analysis of the deposited data

Results flagged for a closer look

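The change from 3h to 24h, tested as a contrast of its own with DESeq2, passed an adjusted p-value under 0.1 for some members. Their effects at the 2 times therefore differed in that fit. In T>C reads the member was COL25A1 (-1.54), and its call was lost with any culture left out. In total reads the members were COL18A1 (-1.31), COL25A1 (-1.16), COL9A1 (-0.73), COL4A2 (-0.53), COL6A1 (0.47), COL13A1 (0.52) and COL6A2 (0.61). Values of the total-read contrast under other settings were not listed. COL6A1 total reads had a log2 fold change of 0.00 at 3h, when its T>C reads were already higher.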

How the results depend on the processing

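With 98 combinations of a gene, a read type and a contrast, 877 values under other settings were computed. Of these, 773 kept their direction and side of the threshold, 47 were no longer called, 12 became called and 45 did not keep their sign, and 36 of the 47 came from leaving out a culture. The 45 were uncalled under both settings, and are given last. At 3h the 3 members called in T>C reads became 1 without the surrogate variable and 1 with size factors from total reads, and with a culture left out 0 to 1. At 24h the 8 became 1 to 2 with a culture left out. Between 24h and 3h the 1 became 2 with edgeR, 3 without the surrogate variable and 3 with the replicate block (culture), and 0 with any culture left out. For total reads at 24h the 10 became 4 to 7 with a culture left out, and the fit without S9CC47_R6 was not run, since no usable surrogate variable was returned for it. Setting T>C against unconverted reads at 3h, the 2 called members became 1 to 2. The replicate block pairs samples by culture and called 2 members at 3h and 7 at 24h in T>C reads and 0 and 11 in total reads. These member counts are given without the number of all genes called in the same fits. At 24h in T>C reads, that number also fell with each culture left out, as given above. The counts therefore do not show a change particular to the members. The cause of these changes was not tested. Depth limits the 8 tested members with a mean under 20 normalized T>C reads, where only large changes could be seen.

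In T>C reads, 24h against 0h, the other sign was found with no surrogate variable COL7A1 at -0.16 and COL16A1 at 0.16, with the replicate block COL7A1 at -0.27 and COL16A1 at 0.35. In T>C reads, 24h against 3h, the other sign was found with edgeR COL7A1 at 0.18, with no surrogate variable COL6A1 at -0.062 and COL15A1 at 0.71, with the replicate block COL6A1 at -0.059 and COL15A1 at 0.54, with total-read size factors COL7A1 at 0.25 and COL26A1 at 0.0078. In total reads, 3h against 0h, the other sign was found with no surrogate variable COL6A1 at 0.041 and COL14A1 at 0.023, with the replicate block COL6A1 at 0.035 and COL14A1 at 0.030, with a minimum mean of 20 counts COL6A1 at 0.0014. In total reads, 24h against 0h, the other sign was found with no surrogate variable COL24A1 at -0.18, with the replicate block COL24A1 at -0.17, with no filter beyond 1 count COL24A1 at -0.062. Leaving out a culture, T>C reads at 3h against 0h gave COL4A5 from -0.22 to 0.28, COL4A6 from -0.49 to 0.25, COL9A2 from -1.25 to 0.37 and COL16A1 from -1.56 to 2.30. At 24h against 0h, the same step gave COL12A1 from -0.18 to 1.04, COL15A1 from -0.30 to 2.40, COL4A5 from -0.27 to 0.80, COL7A1 from -0.38 to 0.45, COL14A1 from -0.67 to 1.35, COL24A1 from -0.11 to 0.74 and COL16A1 from -0.92 to 0.72. Between 24h and 3h it gave COL12A1 from -0.39 to 0.93, COL26A1 from -0.53 to 0.00021, COL4A5 from -0.15 to 0.51, COL9A2 from -3.36 to 0.73, COL15A1 from -0.62 to 0.63, COL6A1 from -0.024 to 0.087, COL8A1 from -2.60 to 0 and COL16A1 from -3.23 to 2.27. For total reads at 3h against 0h it gave COL4A1 from -0.12 to 0.23, COL14A1 from -0.067 to 0.13, COL6A1 from -0.023 to 0.052 and COL9A1 from -0.031 to 0.11. At 24h against 0h, total reads gave COL7A1 from -0.16 to 0.16, COL4A5 from -0.17 to 0.39 and COL24A1 from -0.24 to 0.82.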
